A study of Rattus norvegicus with 8 samples.

Results

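Acute phase proteins are plasma proteins, made mainly by hepatocytes, whose production changes during inflammation. Here 10 genes of the group were read in rat liver: the fibrinogen chains Fga, Fgb and Fgg, the scavengers Hp (haptoglobin, which binds haemoglobin) and Hpx (hemopexin, which binds haem), the protease inhibitors Serpina3n and A2m (alpha-2-macroglobulin), the lipid- and drug-binding Orm1 (alpha-1-acid glycoprotein), the pentraxin Crp (C-reactive protein) and the lipoprotein-bound Saa4. They were taken as every non-control probe whose annotated accession maps to 1 of these symbols, which gave 14 probes of the 41012 on the array and 10 of its 13458 named genes. Crp, Fgb, Fgg and Saa4 have 2 probes each, numbered here from the brighter, and the other genes have 1.

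The rats were male Zucker diabetic fatty (ZDF) rats labelled as 12 weeks old, either lean (fa/+) or obese (fa/fa), the obese genotype lacking a working leptin receptor. Each was given testosterone undecanoate (TU), a long-acting testosterone ester, under the skin at 20 mg/kg body weight, or vehicle, for 4 weeks, with injections every 3 days in the first 2 weeks and weekly in the last 2. Liver RNA of vehicle rats (Cy3) and of TU rats (Cy5) was hybridised together on 8 two-colour Agilent arrays, 4 lean and 4 obese, with no dye exchanged. The labels call the arrays biological replicates without saying how many animals gave each RNA, so p-values measure the spread between arrays, which may be partly technical. All lean arrays lay on 1 slide and scan and all obese arrays on another. In every obese against lean value below, therefore, slide and genotype cannot be told apart, and in every TU value neither can dye and treatment.

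Between 58.4% and 69.1% of non-control probes lay well above background in Cy3 and 50.4% to 60.6% in Cy5. The SD of the log2 ratios was 0.464 on obese array 2, against 0.106 to 0.253 on the other arrays. All 14 member probes passed the intensity filter, lay well above background in both channels of 8 of 8 arrays and were not saturated. The analysis dropped 3 single spots that carried the scanner's mark for uneven signal (Fgb probe 2 on obese array 1, Hpx on obese array 3, Fgg probe 2 on obese array 4). All 11 hepatocyte markers were also well above background on every array. Differences are on the log2 scale with the SE of the limma fit, and a call is an adjusted p under 0.05 over all probes tested.

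In hepatocytes many of these genes are known to respond to interleukin-6 through the factor STAT3, and to interleukin-1 and tumour necrosis factor through C/EBP factors and NF-kappaB. Glucocorticoids add to these signals. Crp and A2m differ between species: A2m is the major acute phase protein of the rat, while Crp is among the major ones in humans. Upstream sequence of 7 of the 10 genes was present in RefSeq's table for GRCr8 (not for A2m, Hp and Saa4). The 250 bases before the start of Orm1, called higher in obese vehicle rats, and of Serpina3n and Fgb, called for TU in lean rats (Fgb by probe 2 only), are shown here, 5′ to 3′, because the letters searched for below lie in them. Fgg, another fibrinogen chain, is shown because its window holds a pair of matches.
Orm1 (GRCr8 chr5:81788259-81788508, plus strand): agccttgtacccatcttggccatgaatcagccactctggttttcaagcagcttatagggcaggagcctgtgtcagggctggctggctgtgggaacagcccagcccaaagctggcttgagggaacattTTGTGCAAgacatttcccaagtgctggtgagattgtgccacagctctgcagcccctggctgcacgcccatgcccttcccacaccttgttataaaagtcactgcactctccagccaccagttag
Serpina3n (GRCr8 chr6:129088142-129088391, plus strand): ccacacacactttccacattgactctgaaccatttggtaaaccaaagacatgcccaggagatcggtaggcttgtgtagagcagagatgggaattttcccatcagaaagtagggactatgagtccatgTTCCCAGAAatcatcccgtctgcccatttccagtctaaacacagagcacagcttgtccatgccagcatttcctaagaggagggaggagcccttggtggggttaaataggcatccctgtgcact
Fgb (GRCr8 chr2:170700876-170701125, minus strand): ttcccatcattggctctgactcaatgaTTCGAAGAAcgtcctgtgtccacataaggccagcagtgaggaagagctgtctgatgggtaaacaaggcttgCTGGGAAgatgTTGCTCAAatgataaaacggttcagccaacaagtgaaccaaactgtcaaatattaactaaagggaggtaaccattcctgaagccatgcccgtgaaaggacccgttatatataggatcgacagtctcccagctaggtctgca
Fgg (GRCr8 chr2:170652833-170653082, plus strand): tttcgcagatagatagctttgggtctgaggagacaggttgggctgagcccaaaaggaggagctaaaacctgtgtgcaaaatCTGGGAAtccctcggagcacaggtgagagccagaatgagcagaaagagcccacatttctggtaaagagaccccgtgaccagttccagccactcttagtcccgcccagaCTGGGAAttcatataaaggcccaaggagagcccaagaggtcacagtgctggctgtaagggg

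The capitals mark matches, on either strand, to the STAT-type site TTCNNNGAA, the interleukin-6 response element core CTGGGAA and the C/EBP-type site TTGCNNAA. The consensus sites of NF-kappaB and of the glucocorticoid and androgen receptors were searched too. The STAT-type letters were found upstream of 3 of the 7 genes (Fga, Fgb and Serpina3n) and in 7.67% of 33469 windows of the same length. The CTGGGAA core was found in 3 (Fgb, Fgg and Serpina3n), against 9.56% of windows, and in Serpina3n it overlaps the STAT-type match. The C/EBP-type letters were found in 4 (Fga, Fgb, Hpx and Orm1), against 9.22%. The consensus sites of NF-kappaB and of the steroid receptors were found in none of the 7, against 1.3% and 0.012% of windows. The steroid receptor hexamer TGTTCT was found upstream of 1 of the 7 (Crp), against 17.5% of windows. These are matches of letters only. Counts are per gene and shares per window: the 7 genes had 8 windows, because Fga had more than 1. The STAT-type match of Fga lay in only 1 of its windows.

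Obese and lean rats were compared first under vehicle. Orm1 rose and A2m fell in obese rats, by 2.02-fold and 2.83-fold, while the fibrinogen, haptoglobin and Crp probes differed by less. The log2 level of Orm1 in vehicle rats was 14.58, 14.57, 14.64 and 14.66 on lean arrays 1 to 4 and 15.54, 15.99, 15.45 and 15.51 on obese arrays 1 to 4. The groups did not overlap, and obese array 2 was the highest. Orm1 differed by 1.01 ± 0.119 (adjusted p = 0.00242, limma), and by 0.89 without obese array 2. The difference was 0.48 (adjusted p = 0.0641) with the scanner's processed signals and 0.60 (adjusted p = 0.076) without the loess step.

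A2m inhibits many proteases by trapping them. Its log2 level in vehicle rats was 10.36, 10.51, 10.20 and 10.16 on lean arrays 1 to 4 and 9.43, 8.15, 8.97 and 8.68 on obese arrays 1 to 4. Every obese array lay below every lean array, and obese array 2 was the lowest. The difference was -1.50 ± 0.25 (adjusted p = 0.00929, limma), and -1.28 without obese array 2. It was called under all 18 other settings, at -2.14 to -1.28. In bulk liver RNA, fewer cells of a type and less RNA per cell cannot be told apart.

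**Figure D1:**
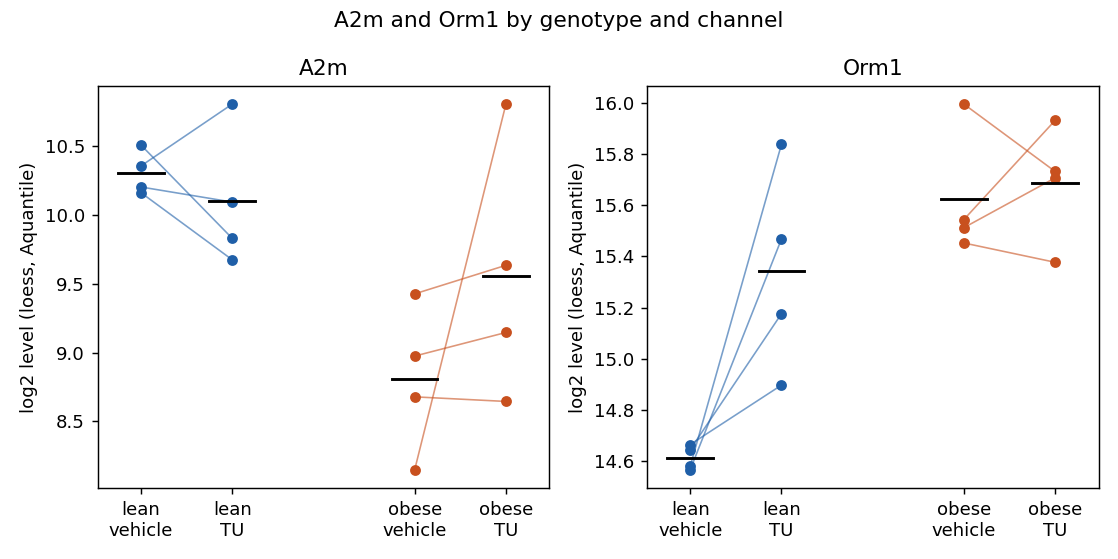
Log2 level of A2m (left) and Orm1 (right) after loess and Aquantile normalization in vehicle (Cy3) and TU (Cy5) rats, lean in blue and obese in orange, with 1 point for each array, lines joining the channels of an array and black bars at the means. In vehicle rats A2m was 8.15 to 9.43 on obese arrays and 10.16 to 10.51 on lean arrays, and the point at 10.80 under TU is obese array 2.

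The fibrinogen chains, which assemble into the clot-forming protein, gave no common direction in vehicle rats, and their probes disagreed. Fgb probe 2 fell by 0.32 ± 0.0551 (adjusted p = 0.0146) while Fgb probe 1 differed by 0.10 ± 0.196 (adjusted p = 0.781). Fgg probe 2 fell by 0.32 ± 0.0678 (adjusted p = 0.0257) while Fgg probe 1 differed by 0.37 ± 0.111 (adjusted p = 0.0623). Both called probes rest on 3 obese arrays. Fgb probe 2 lost its call without lean array 2, 3 or 4 (adjusted p = 0.0508 to 0.0539), and Fgg probe 2 without any 1 lean array or obese array 3 (adjusted p = 0.0557 to 0.0793). With the non-uniform spot kept Fgg probe 2 was not called (-1.05, adjusted p = 0.305). Fga differed by 0.31 ± 0.112 (adjusted p = 0.103). Of the other members, Hp differed by 0.54 ± 0.168 (adjusted p = 0.0682), its sign turning in 1 other setting (lowest value -0.067), and Crp probe 1 by 0.65 ± 0.196 (adjusted p = 0.0646), each with non-overlapping groups. Without obese array 2 Crp probe 1 differed by 0.44 and was called (adjusted p = 0.0102).

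Hpx differed by 0.34 ± 0.195 (adjusted p = 0.286), Serpina3n by 0.02 ± 0.163 (adjusted p = 0.941), and Saa4 by -0.26 on probe 1 and 0.33 on probe 2. In all, 4 of 14 probes were called (1 higher, 3 lower), against 15.3% of 26892 probes tested, 8.2% higher and 7.08% lower. At an unadjusted p under 0.05 there were 8 of 14, against 31.6%. The groups did not overlap for 4 of the 11 member probes measured on all 8 arrays, against 26.4% of probes. The median over the 14 probes was 0.32, against 0.02 over all, but -0.12 with the scanner's processed signals and -0.11 without loess. Hepatocyte markers were higher in obese vehicle rats: their mean log2 level was 14.56 to 14.77 on lean and 14.83 to 15.40 on obese arrays, with 3 of 11 called higher (Cps1, Tdo2, Alb). Erythroid markers were at 9.94 to 10.93 and 11.04 to 12.11. The highest hepatocyte and erythroid values, 15.40 and 12.11, were both on obese array 2. Lymphocyte markers Cd3d and Cd3g and the adipocyte marker Cfd fell in obese rats, by 0.82, 0.31 and 0.82, the stellate cell markers Col3a1 and Pdgfrb rose by 0.59 and 0.47 and Lrat fell by 0.94, and no Kupffer cell, neutrophil, sinusoidal endothelial or cholangiocyte marker was called. The part of these cell types in the Orm1 and A2m values was not tested.

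Obese and lean rats were next compared among TU rats, and "under TU" in a genotype comparison means this one. Neither A2m nor Orm1 was called, while Hp, Crp, Fgb and Saa4 each had 1 probe that was. A2m was at 10.81, 9.83, 10.09 and 9.67 on lean arrays and 9.63, 10.80, 9.15 and 8.64 on obese arrays. The groups overlapped, because obese array 2 reached the level of the highest lean array. A2m differed by -0.54 ± 0.457 (adjusted p = 0.449), and by -0.96 (adjusted p = 0.0904) without obese array 2. Orm1 ranged from 14.90 to 15.84 on lean and 15.38 to 15.93 on obese arrays and differed by 0.34 ± 0.205 (adjusted p = 0.282).

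Fgb probe 2 fell in obese rats under TU by 0.84 ± 0.108 (adjusted p = 0.00307), with lean arrays at 17.12 to 17.51 and the 3 measured obese arrays at 16.32 to 16.57. Fgb probe 1 differed by -0.17 ± 0.16 (adjusted p = 0.499), and it ranged from 17.02 to 17.43 on lean and 16.62 to 17.32 on obese arrays. Hp rose by 0.36 ± 0.0856 (adjusted p = 0.0227), at 17.28 to 17.61 on lean and 17.66 to 17.89 on obese arrays. Crp probe 1 rose by 0.28 ± 0.0735 (adjusted p = 0.03), at 14.50 to 14.67 and 14.71 to 14.96. With the scanner's processed signals both turned, to -0.15 for Hp (adjusted p = 0.669) and -0.14 for Crp probe 1 (adjusted p = 0.541). Single arrays also decided these calls: Hp and Crp probe 1 were not called without lean array 1, 2 or 4 or obese array 3 or 4 (adjusted p = 0.0517 to 0.0836). Crp probe 2 differed by -0.02 ± 0.123 (adjusted p = 0.92). Saa4 probe 1 fell by 0.50 ± 0.131 (adjusted p = 0.0312), while Saa4 probe 2 differed by 0.24 ± 0.112 (adjusted p = 0.181), so the probes of this gene stood on opposite sides of 0. Saa4 probe 1 was not called without lean array 1, 3 or 4 or obese array 2 or 3 (adjusted p = 0.0621 to 0.0855). In all, 4 of 14 probes were called (2 higher, 2 lower), against 20.7% of probes tested, 12.1% higher and 8.57% lower. At an unadjusted p under 0.05 there were 4 of 14, against 34.4%. The groups did not overlap for 2 of the 11 probes measured on every array, against 27.3%.

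Markers of other cell types also differed between obese and lean TU rats. Of 8 stellate cell and fibroblast markers 3 were called higher in obese rats (Col1a1 at 1.91, Col3a1 at 0.82 and Pdgfrb at 0.65) and Lrat lower (-0.70). Of 10 Kupffer cell markers Vsig4 was higher (0.88) and C1qa and Clec4f lower (-1.18 and -0.91), and of 5 sinusoidal endothelial markers Fcgr2b was higher (0.59) and Lyve1 and Pecam1 lower (-0.46 and -0.18). The lymphocyte markers Cd3d and Cd3g (-0.91 and -0.42) and the adipocyte marker Cfd (-0.96) were lower, and the hepatocyte marker Cps1 was higher (0.86). The mean log2 level of the hepatocyte markers overlapped between these groups, at 14.72 to 14.96 on lean and 14.92 to 15.12 on obese arrays. No neutrophil, cholangiocyte or erythroid marker was called. Their part in the member values was not tested.

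**Figure D2:**
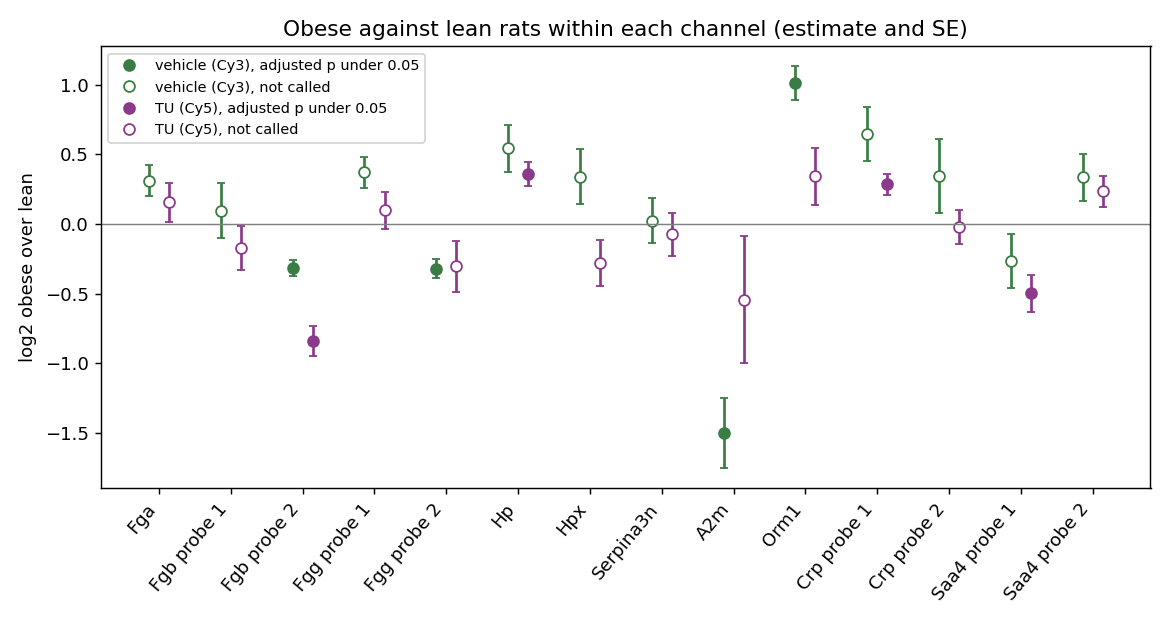
Log2 obese over lean difference of the 14 member probes within vehicle (Cy3, green) and within TU (Cy5, purple) with the SE of the limma fit, filled where the adjusted p is under 0.05. Under vehicle Orm1 stands at 1.01 and A2m at -1.50, and the paired probes of Fgb, Fgg and Saa4 lie apart.

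TU was compared with vehicle within each genotype. In lean rats Serpina3n and probe 2 of Fgb passed the test, both higher under TU, and the brighter Fgb probe 1 did not. Serpina3n, an inhibitor of serine proteases, rose by 0.53 ± 0.0751 (1.45-fold, adjusted p = 0.0432), at 0.71, 0.55, 0.48 and 0.38 on lean arrays 1 to 4. Fgb probe 2 rose by 0.64 ± 0.081 (1.56-fold, adjusted p = 0.0401), at 0.89, 0.61, 0.64 and 0.43. All 4 lean arrays were above 0 for both. They were 2 of 14 member probes called, against 0.197% of 26894 probes tested, 0.123% higher and 0.0744% lower. At an unadjusted p under 0.05 there were 7 of 14, against 15% of probes.

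Orm1 gave the highest lean mean, 0.73 ± 0.16 (adjusted p = 0.105), at 1.26, 0.90, 0.53 and 0.23, all above 0. Hp was at 0.33, 0.37, 0.95 and 0.54, a mean of 0.55 ± 0.134 (adjusted p = 0.121). Hpx was at 0.45, 0.11, 0.48 and 0.17, a mean of 0.30 ± 0.101 (adjusted p = 0.232). Fgg probe 1 had a mean of 0.40 ± 0.115 (adjusted p = 0.166) and Fgb probe 1 of 0.52 ± 0.208 (adjusted p = 0.291). None of these passed the threshold. All 4 lean arrays were above 0 for 8 of 14 probes, against 11.9% of probes, and the member median was 0.34 against -0.02 over all probes. With median centring in place of loess it was -0.09 against -0.21 over all, with 5 of 14 above 0. The remaining probes ranged from -0.21 (A2m) to 0.38 (Saa4 probe 1). A2m, Saa4 probe 2 and Crp probe 2, the probes with a lean mean below 0, were the dimmest members. They lay at percentiles 82.3, 90.7 and 91.7 of mean intensity among probes that passed the filter. The other members lay at percentiles 98.7 to 100. The part of intensity in the lean values was not tested.

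Neither lean call was kept in every setting: with median centring in place of loess, Serpina3n was at 0.11 (adjusted p = 0.788) and Fgb probe 2 at 0.22 (adjusted p = 0.573). Without obese array 2, whose log ratios had the widest spread, 5 probes were called (Crp probe 1, Fgb probe 2, Hp, Orm1 and Serpina3n), and without each of the other 7 arrays none was. Over all probes 4.47% were called without obese array 2, against 0.197% with all arrays. The lean means stayed the same, and only the estimate of spread that both genotypes share in the fit changed. In the same lean arrays the erythroid markers had a median of 0.79, with Hbb-b1 at 1.39 ± 0.195 (adjusted p = 0.0432), and the hepatocyte markers a median of 0.10. No marker other than Hbb-b1 was called there. Above 0 were 0 of 10 Kupffer cell markers (median -0.17), 1 of 8 stellate cell markers (-0.21), 0 of 5 sinusoidal endothelial markers (-0.10), 2 of 6 lymphocyte markers (-0.06), 0 of 3 cholangiocyte markers (-0.02), 2 of 2 neutrophil markers (0.12) and 1 of 2 adipocyte markers (-0.0014). Their part in the member values was not tested.

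**Figure D3:**
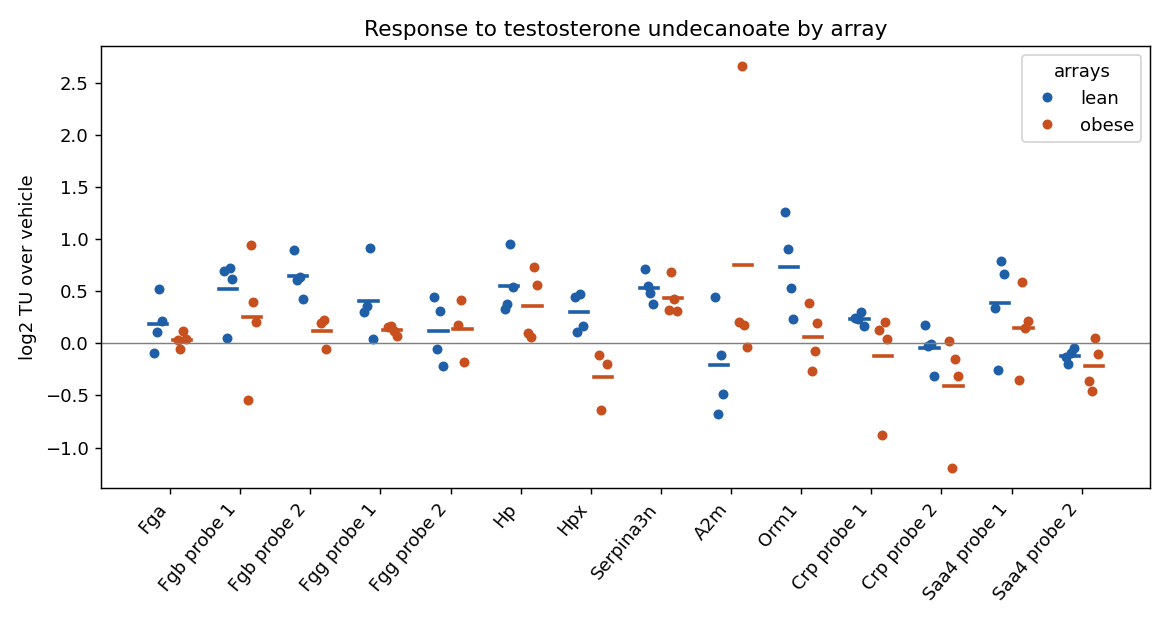
Log2 TU over vehicle of the 14 member probes on each lean (blue) and obese (orange) array, with bars at the group means. Serpina3n lies above 0 on every array (0.31 to 0.71), and A2m reaches 2.66 on obese array 2.

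In obese rats no member probe was called, and 0.0111% of 26960 probes were. At an unadjusted p under 0.05 there were 5 of 14, against 12.7% of probes. Serpina3n was at 0.32, 0.68, 0.43 and 0.31, a mean of 0.43 ± 0.0751 (adjusted p = 0.216), and Hp at 0.10, 0.06, 0.73 and 0.56 (0.36 ± 0.134, adjusted p = 0.375). Hpx was at -0.12, -0.64 and -0.20 on its 3 measured obese arrays (-0.32 ± 0.116, adjusted p = 0.375), and had a mean of -0.16 (adjusted p = 0.825) without obese array 2. Orm1 was at 0.39, -0.26, -0.08 and 0.19 (0.06 ± 0.16, adjusted p = 0.873). The 2 Crp probes shared a low value on obese array 2: probe 1 was at -0.88 on obese array 2 and 0.04 to 0.20 on the others, and probe 2 at -1.19 and -0.31 to 0.02. Their means were -0.13 and -0.41 with that array and 0.13 and -0.14 without it.

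The difference between the obese and lean responses was not called for any member, and 0.00372% of 26892 probes were. It was -0.67 ± 0.226 for Orm1, -0.62 ± 0.154 for Hpx and -0.52 ± 0.124 for Fgb probe 2, each with an adjusted p of 0.641. Of the 14 probes 3 had an unadjusted p under 0.05, against 7.62% of probes, and 12 of 14 were below 0 (median -0.25). This direction turns with the scaling: with median centring in place of loess 14 of 14 were above 0 (median 0.71, against 0.21 over all probes), and with ratios scaled between arrays 7 were. The hepatocyte markers had a median of -0.29 in this difference, with 1 of 11 above 0. Serpina3n, above 0 on all 8 arrays, differed by -0.10 ± 0.106 (adjusted p = 0.792).

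A2m varied between arrays more than its mean response. Its log ratio was 0.45, -0.68, -0.11 and -0.49 on lean arrays and 0.21, 2.66, 0.17 and -0.03 on obese arrays. The value on obese array 2 lay far above the other 7 and combined the lowest vehicle level with the highest TU level of its genotype. The obese mean was 0.75 ± 0.404 (adjusted p = 0.44), and 0.12 (adjusted p = 0.92) without that array.

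The genes whose log ratios were nearest to those of A2m, by the root mean square difference over the 8 arrays among 9804 genes, were Lgals1 (0.388), Trem2 (0.4), S100a4 (0.458), S100a10 (0.486) and Col1a2 (0.535). Lgals1 encodes a galectin, Trem2 a receptor of macrophages, S100a4 and S100a10 small calcium-binding-family proteins, and Col1a2 a chain of collagen I. On obese array 2 they were at 1.73, 2.13, 1.51, 1.41 and 1.73, and that array dominates the measure. Stellate cell and fibroblast markers had a mean log2 level of 10.55 in the TU channel of that array, the highest of 8 arrays, and 9.66 in its vehicle channel. In the TU channel they were at 9.48 to 9.64 on lean arrays and at 9.84 on the lowest obese array. Col1a2 is among these markers, so their mean is partly drawn from a gene picked for its likeness to A2m. The 10 Kupffer cell and macrophage markers were at 10.23 and 10.50 there, within the range of the other arrays. The part of these markers in the A2m value was not tested. The genes nearest to the mean of the fibrinogen probes were Pebp1 (0.142), Nudt4 (0.145), Gckr (0.153), Sod1 (0.158) and Rpl5 (0.161).

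**Figure D4:**
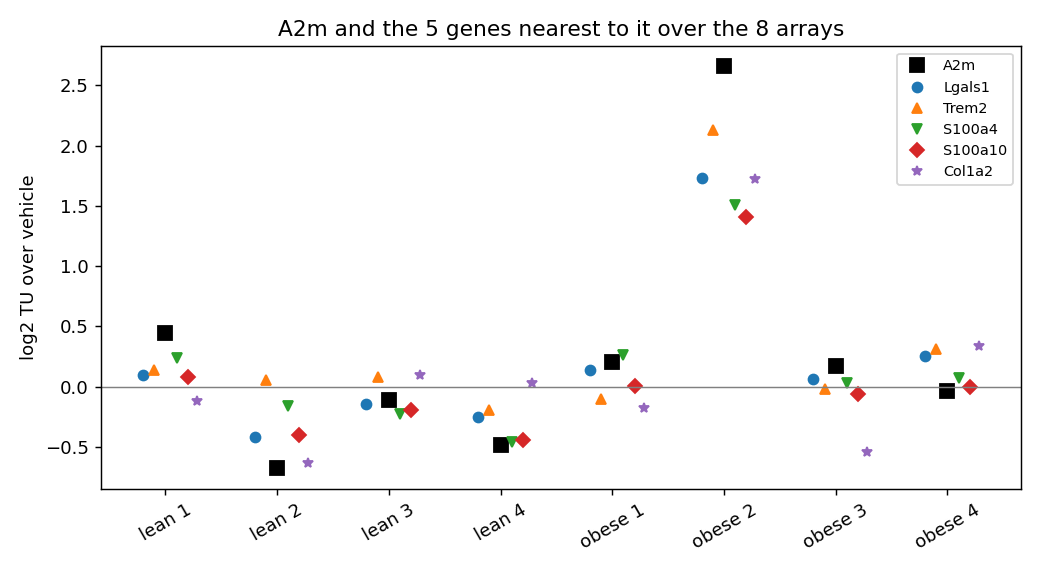
Log2 TU over vehicle of A2m (squares) and of Lgals1, Trem2, S100a4, S100a10 and Col1a2 on each of the 8 arrays. All 6 genes are between 1.41 and 2.66 on obese array 2 and between -0.68 and 0.45 on the other arrays.

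Genes upstream of and beside the members were read from lists. Over all probes tested, 15.3% were called between genotypes under vehicle and 20.7% among TU rats. For TU over vehicle the shares were 0.197% in lean and 0.0111% in obese rats, so the lack of a call says little about a short list. Of 12 measured genes of interleukin-6 family signalling, none was called under TU or between genotypes under vehicle, and among TU rats Il11ra1 was higher in obese than in lean rats (0.40 ± 0.104, adjusted p = 0.0298). The largest TU values in lean rats were those of the phosphatase Ptpn11 (-0.35 ± 0.14, adjusted p = 0.29) and the kinase Jak1 (-0.28 ± 0.105, adjusted p = 0.265). In that comparison 6 of the 12 were above 0, with a median of 0.01 against -0.01 over all genes. Stat3 was among those above 0, at 0.25 ± 0.0736 (adjusted p = 0.178). Of 14 genes of interleukin-1, tumour necrosis factor and NF-kappaB signalling, Il1a (0.65 ± 0.0778, adjusted p = 0.00153) and the receptor antagonist Il1rn (0.57 ± 0.131, adjusted p = 0.0196) were higher in obese than in lean TU rats, and none was called elsewhere. Of 13 liver-enriched transcription factors, Foxa1 rose in obese rats in both channels, by 0.72 ± 0.149 under vehicle and 0.95 ± 0.164 under TU (adjusted p = 0.0193 and 0.00644). Nr1h4, the bile acid receptor, rose in both channels too (0.63 ± 0.14 and 0.64 ± 0.19), and among TU rats Cebpa was higher in obese than in lean rats (0.59 ± 0.0916). No factor was called for the TU response.

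Of 12 glucocorticoid genes, Hsd11b1, which regenerates active glucocorticoid in liver, fell in obese rats by 1.55 ± 0.117 under vehicle (adjusted p = 0.000496) and by 1.24 ± 0.121 under TU. Among TU rats Sgk1 and Tsc22d3, glucocorticoid-induced genes, were higher in obese than in lean rats, by 0.48 ± 0.128 and 0.62 ± 0.133. None of the list was called for the TU response, against 0.197% of probes in lean and 0.0111% in obese rats. In lean rats Dusp1 was at 0.88 ± 0.179 (adjusted p = 0.095) and Sgk1 at -0.72 ± 0.111 (adjusted p = 0.0591), with 6 of 12 above 0. In obese rats Serpina6 was at -0.90 ± 0.134 (adjusted p = 0.182) and Tsc22d3 at 0.85 ± 0.175 (adjusted p = 0.226), with 8 of 12 above 0.

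Genes listed as other positive acute phase proteins, not all of them plasma proteins, differed between genotypes in both directions. Of 33 measured, 4 rose and 3 fell in obese rats under vehicle, against 15.3% of all probes called. Among TU rats 4 rose and 5 fell, against 20.7%. None was called for the TU response, against 0.197% of probes in lean and 0.0111% in obese rats. Lbp, which presents bacterial lipopolysaccharide, fell by 2.38 ± 0.179 (5.22-fold, adjusted p = 0.000495) and C9, of the complement membrane attack complex, by 1.10 ± 0.113 (adjusted p = 0.00153) under vehicle. C4a, of the complement cascade, rose by 1.27 ± 0.31 (adjusted p = 0.0334) and the trypsin inhibitor Spink1 by 1.15 ± 0.267 (adjusted p = 0.029). Under TU these were -2.66, -1.69, 1.16 and 1.28, all called. Mt1, a metal-binding metallothionein, was at 2.00 ± 0.417 in TU over vehicle of obese rats (adjusted p = 0.233).

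Negative acute phase proteins are those whose production drops in inflammation. Of 17 genes so listed, not all of them for plasma proteins, Rbp4, the carrier of retinol, rose under TU in lean rats by 0.66 ± 0.0913 (adjusted p = 0.0406). Under vehicle 4 rose and 1 fell in obese rats, against 15.3% of all probes called. The largest called difference was that of Prodh, at -1.13 ± 0.246 (adjusted p = 0.0234). Alb (albumin) was at 0.72 ± 0.155 (adjusted p = 0.023) and Serpinc1 (antithrombin) at 0.71 ± 0.118 (adjusted p = 0.00925). Among TU rats 4 rose and 2 fell, against 20.7%. Those that fell were Tf, at -0.57 ± 0.121 (adjusted p = 0.0314), and Proc, at -0.56 ± 0.142 (adjusted p = 0.0276). Alb is also among the hepatocyte markers. Calls between genotypes were followed without each array for 21 list and marker genes under vehicle and 32 under TU, and 13 and 16 of these lost the call without at least 1 single array, 2 and 9 of them without obese array 2. For TU in lean rats 0 probes were called with ratios scaled between arrays or with limma's trend and robust options. The calls of Rbp4 and Hbb-b1 were therefore not kept in those settings.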

How the data were processed

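Per the file headers, intensities of spots and of their surroundings are pixel medians from Agilent Feature Extraction 10.7.3.1. That software also gave the deposited log10 ratios and the background-subtracted, dye-normalized intensities. The authors' series matrix holds log2 ratios of TU over vehicle, judged from their slope of 3.33 to 3.38 on the scanner's log10 ratio; their normalization and centring are not given in the sources used here, and their column medians were 0.0462 to 0.14. Deposited flags and background values were used as scores of spot quality.

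Signals were corrected with normexp (offset 50), normalized by loess within arrays (limma 3.58.1, R 4.3.3), and spots marked as non-uniform left out. Mean signals, which the plan assumed, are not in the files read, so median signals were used. A probe was fitted if either channel was well above background on 4 or more of 8 arrays (26962 probes), all groups together, with lmFit and eBayes and Benjamini-Hochberg adjustment. Genotypes were compared within each channel after loess and Aquantile. Accessions named 17010 probes through 2 annotation versions, the newer first. Lists take the brightest probe of each gene. Members and lists were chosen with earlier results of these data known. Genes of a list were named where called, or else by the size of their difference, and those nearest to A2m or fibrinogen by root mean square difference. All columns of the series matrix matched a sample (0 unmatched). Fits were tested on simulated data. RNA came from 100 mg of liver, and 0.2 µg was labelled, per the labels' protocols. Promoters are RefSeq's, GRCr8; the array annotation names rn4. 8 arrays limit the precision. A further result of the transcription factor list is not reported here.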

Additional observations from a re-analysis of the deposited data

Results flagged for a closer look

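In 75 groups of 4 arrays, 6 held a value far from the other 3, and chance gives about 1 in 20. The log ratio of A2m was 2.66 on obese array 2, against -0.03 to 0.21 on the others, and that of Crp probe 1 was -0.88 there, against 0.04 to 0.20. The vehicle level of Orm1 was 15.99 on obese array 2, against 15.45 to 15.54. The level of Crp probe 2 was 11.32 in vehicle rats on lean array 1, against 11.48 to 11.50, and 11.17 in TU rats on lean array 4, against 11.45 to 11.50. The log ratio of Fgb probe 1 was 0.047 on lean array 2, against 0.61 to 0.73. Of these 6 values, 3 come from obese array 2, and the part of that array's wide spread of log ratios in them was not tested.

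In the main fit the TU response of Hpx went opposite ways in the genotypes: all 4 lean arrays were above 0 and all 3 measured obese arrays below 0. The difference was -0.62, with an adjusted p of 0.641 in limma's test of the difference itself. These signs were not kept in every setting. Over the other settings the lean mean ran from -0.12 to 0.36 and the obese mean from -0.42 to 0.27. The difference ran from -0.72 to 0.39.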

How the results depend on the processing

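A2m under vehicle kept its direction and its call in all 18 other settings and Orm1 in 16. Of 2 member probes called for TU in lean rats, 1 was called with no background correction (Fgb probe 2). With non-uniform spots kept, a setting chosen after seeing the data, 1 was called (Serpina3n). Serpina3n was also called with the brightest probe per gene, where Fgb probe 2 was not tested. With median centring 1 was called, Saa4 probe 2, lower. There were 0 with processed signals, the authors' log ratios, scaled ratios, no filter, or limma's trend and robust options. Leaving out each array gave 0 to 5, with 1 to 1202 calls over all probes. Over all probes these settings gave 0 to 6584 calls for TU in lean rats, 312 higher and 6272 lower with median centring, against 33 and 20.

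No member was called for TU in obese rats or for the difference in any setting. Of 4 under vehicle, 2 were called with processed signals and with trend and robust options, and 2 to 7 without each array. With the brightest probe per gene 2 were called, but only 10 member probes were tested there, without Fgb probe 2 and Fgg probe 2. Under TU there were 2 of 4 with trend and robust options and 1 to 5 without each array. Over all probes, leaving out each array gave 1737 to 5720 calls under vehicle and 3562 to 8578 under TU. With processed signals Crp probe 1 turned to -0.14 and Hp to -0.15 under TU. Without loess the split of all calls was 361 higher and 1784 lower under vehicle, and 2654 and 660 under TU, against 2205 and 1905, and 3260 and 2305. The causes were not tested.

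Lean and obese arrays share replicate numbers, but same-numbered arrays correlated in their deviations by only 0.059, -0.104, 0.156 and -0.0134, so the numbers were not taken as pairs. With the replicate number as a block, 0 members were called for TU in lean rats, 2 under vehicle (A2m and Orm1) and 3 under TU, and calls over all probes went from 53 to 23 and from 4110 to 1699 in the comparisons of TU in lean rats and of genotype under vehicle. Of the lean arrays, 1 and 3 correlated best with their own number, 2 and 4 with another. The number of arrays limits the precision.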
